A study of Homo sapiens with 9 samples.

Results

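A set of 10 genes of the YAP and TAZ transcription module was followed in SKBR3 cells, an established human breast cancer line with an amplified ERBB2 gene, after silencing of the adhesion gene PVRL4. The set holds the coactivator genes YAP1 and WWTR1 (the gene for TAZ), the DNA-binding partner genes TEAD1, TEAD2, TEAD3 and TEAD4, and the target genes CTGF, CYR61, ANKRD1 and AMOTL2. They were taken by gene symbol, and all 10 were found among the 20812 genes of the table. Of these, 9 had a mean of at least 1 RPM, which scales the reads of a gene to its library total, and were tested, and ANKRD1 was too low. The groups were PVRL4 siRNA 1, PVRL4 siRNA 2 and a control siRNA, with 3 libraries each. All 9 libraries came from cells given 10 nM siRNA with Lipofectamine RNAiMAX for 48 h in medium with 10% serum. The control siRNA was an ON-TARGETplus reagent of Horizon Discovery and both PVRL4 siRNAs were made by Integrated DNA Technologies, so supplier and target cannot be told apart in a comparison with control. Nothing in the labels says that replicates were grown as separate cultures. The p-values therefore measure the spread between these libraries, which may be technical.

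YAP and TAZ are coactivators that do not bind DNA themselves. In the nucleus they bind TEAD proteins, which recognise the motif GGAATG, which reads CATTCC on the other strand, in promoters and enhancers. In the Hippo cascade MST kinases activate LATS kinases, which phosphorylate YAP and TAZ and hold them in the cytoplasm. Cell to cell contact feeds into that cascade. CTGF, CYR61 and ANKRD1 are widely used readouts of YAP and TAZ activity, and AMOTL2 is both a target and a scaffold that binds YAP. Control by phosphorylation and location is not visible in RNA levels of YAP1 and WWTR1.

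Promoter sequences of the target genes are shown because that TEAD motif is what links them to the TEAD genes. The windows run from 250 bases before to 50 after a start in RefSeq (GRCh38.p14), 7 of the 10 genes matched, and they gave 10 windows. Sequences read 5′ to 3′ along the gene's strand, and capitals mark GGAATG or CATTCC, which were searched on both strands and did not overlap each other. CTGF (CCN2 in current annotation; chr6:131951323-131951622, minus strand) held 3 copies, starting 169, 104 and 95 bases before the start. ANKRD1 (chr10:90921038-90921337, minus strand) held 2, starting 220 and 128 bases before it. For AMOTL2, 1 of the 2 windows (chr3:134374398-134374697, minus strand) held 1 copy, on the opposite strand.
CTGF: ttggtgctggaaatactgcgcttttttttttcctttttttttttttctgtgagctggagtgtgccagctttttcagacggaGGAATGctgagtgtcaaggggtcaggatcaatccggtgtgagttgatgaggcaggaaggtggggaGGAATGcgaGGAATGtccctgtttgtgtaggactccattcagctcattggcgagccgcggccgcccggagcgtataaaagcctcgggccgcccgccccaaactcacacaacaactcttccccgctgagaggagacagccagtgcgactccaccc
ANKRD1: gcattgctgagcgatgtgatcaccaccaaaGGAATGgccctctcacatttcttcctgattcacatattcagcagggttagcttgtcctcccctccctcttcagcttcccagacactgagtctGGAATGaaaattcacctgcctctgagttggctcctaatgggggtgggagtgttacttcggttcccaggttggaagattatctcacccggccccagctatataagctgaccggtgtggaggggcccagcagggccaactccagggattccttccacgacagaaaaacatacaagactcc
AMOTL2: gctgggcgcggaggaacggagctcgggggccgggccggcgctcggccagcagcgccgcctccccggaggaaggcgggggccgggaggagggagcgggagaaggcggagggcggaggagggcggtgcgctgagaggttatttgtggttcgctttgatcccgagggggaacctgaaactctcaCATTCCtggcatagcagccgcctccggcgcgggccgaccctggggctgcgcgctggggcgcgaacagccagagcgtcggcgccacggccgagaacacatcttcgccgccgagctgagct

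YAP1 (chr11:102110197-102110496, plus strand) had 1 copy 162 bases before its start, and the windows of WWTR1, TEAD2 and TEAD3 had 0. Windows of CYR61, TEAD1 and TEAD4 were not analysed here. Of the 35116 windows in the table, 14.03% held at least 1 copy, 1.361% at least 2 and 0.1253% at least 3. A match is a run of letters and says nothing about occupancy in these cells.

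PVRL4 itself was at 5.01, 2.96 and 9.81 RPM on average with siRNA 1, siRNA 2 and control. Its log2 change was -1.44 with siRNA 2 (limma adjusted p = 0.00224) and -0.84 with siRNA 1 (0.0601, or 0.0132 with libraries matched by replicate number). Libraries held 10017130 to 10707777 reads, 1 read being 0.0934 to 0.0998 RPM. The 6 markers of HER2-positive luminal cells (ERBB2, GRB7, KRT8, KRT18, KRT19, EPCAM) were present in all 9 libraries, with sums of 9923 to 10337 RPM with siRNA 1, 8558 to 9022 RPM with siRNA 2 and 10133 to 10800 RPM with control. Of the markers of other cell types, COL1A1 and CDH5 were read at a low level and the rest were under 1 RPM. The 6 fibroblast genes summed to 4.10 to 7.66 RPM, of which COL1A1 made 3.53 to 6.35 RPM. The 4 endothelial genes summed to 4.39 to 10.3 RPM, nearly all CDH5, with PECAM1 and KDR at no more than 1 read. The 4 leukocyte genes summed to at most 0.374 RPM, with PTPRC at 0 reads in every library. In these bulk libraries, fewer cells of a type and less RNA per cell cannot be told apart.

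The members' changes went in both directions with each siRNA. With siRNA 1, 5 of the 9 tested genes had a log2 change above 0 and 4 below, with a median of 0.041 against 0.014 over all 11158 tested genes. With siRNA 2, 3 were above and 6 below, with a median of -0.07 against -0.02. No member passed an adjusted p of 0.05 against control in limma with either siRNA, where 0.851% of all genes did with siRNA 1 and 0.681% with siRNA 2. edgeR on the whole reads recovered from the RPM steps also called 0 and 0, DESeq2 0 and 1 (TEAD1, where it called 1.61% of the genes it gave an adjusted p with siRNA 2). At an unadjusted p under 0.05, limma had 1 higher with siRNA 1 (CTGF) and 2 lower with siRNA 2 (TEAD1 and TEAD3), where 3.26% of all genes were higher with siRNA 1 and 6.93% lower with siRNA 2. Libraries with the same replicate number deviated from their group means together, so a fit with the number as a block was also made. It called 0 members with siRNA 1, where it called 1.85% of all genes, and 2 with siRNA 2, both lower, where it called 3.41%. Intervals below are those of the fit without the block unless they are called matched.

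**Figure D1:**
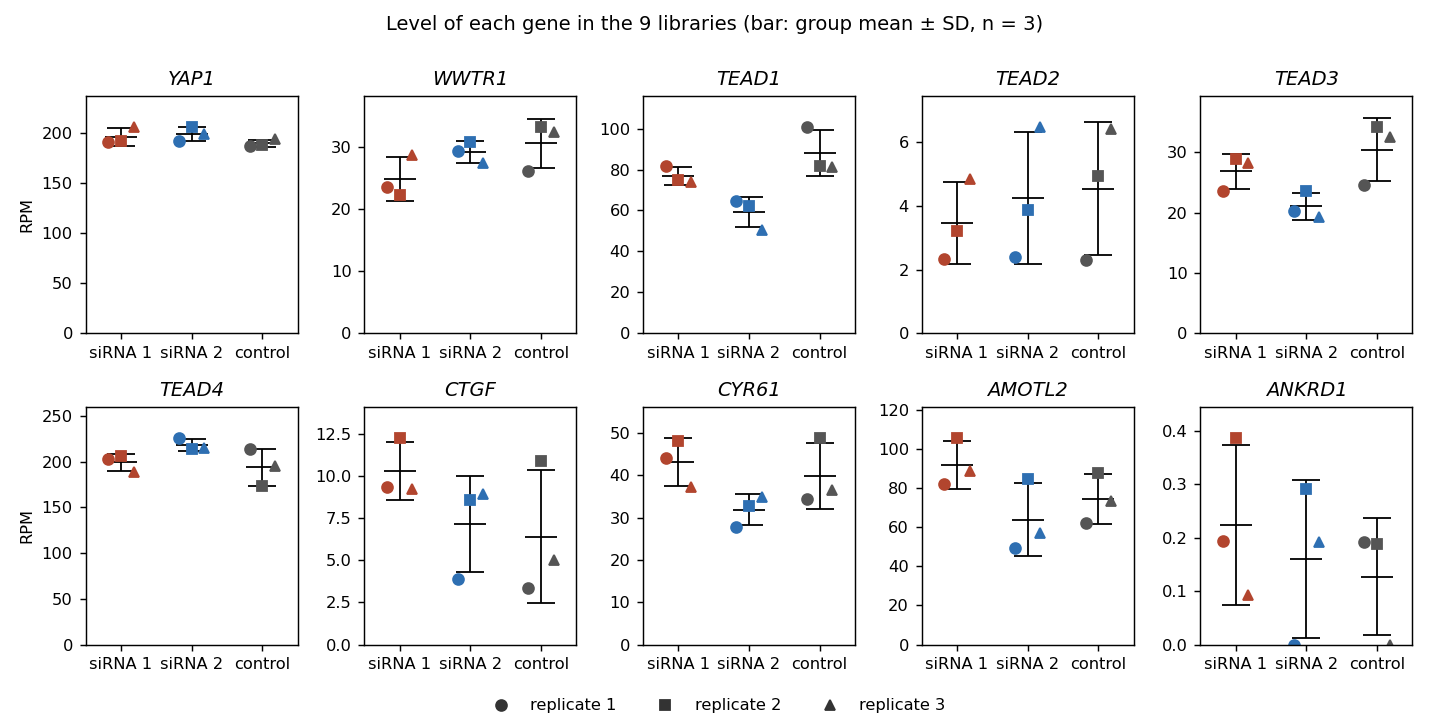
Level in RPM (linear axis from 0, its own scale in each panel) of the 10 genes in the 9 libraries, by siRNA group, with marker shape for the replicate number and bars for the group mean ± SD (n = 3). The 3 siRNA 2 points for TEAD1 and TEAD3 lie below every siRNA 1 and control point, while TEAD2 follows the replicate number in all 3 groups.

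Of the coactivator genes, YAP1 differed little between the groups, while the WWTR1 mean with siRNA 1 was 81.3% of the control mean. YAP1 (chromosome 11, 102110461 to 102233423, plus strand, GRCh38) was at 191, 192 and 207 RPM with siRNA 1, 192, 206 and 199 RPM with siRNA 2, and 187, 189 and 194 RPM with control. The groups overlapped, and all 6 PVRL4 siRNA libraries were above the control of the same number, by 0.02 to 0.13 on the log2(RPM + 1) scale. The log2 change was 0.048 with siRNA 1 (95% confidence interval -0.14 to 0.23) and 0.07 with siRNA 2 (-0.12 to 0.25), and neither passed in limma (adjusted p = 0.9997 and 0.889). These were the narrowest intervals among the 9 tested genes.

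WWTR1 (chromosome 3, 149517235 to 149736714, minus strand) was at 23.6, 22.2 and 28.8 RPM with siRNA 1, 29.4, 30.8 and 27.4 RPM with siRNA 2, and 26.1, 33.3 and 32.3 RPM with control. The siRNA 1 group lay lowest on average, at 24.8 ± 3.47 RPM, with siRNA 2 at 29.2 ± 1.72 and control at 30.5 ± 3.92 (SD, n = 3), and all groups overlapped. Its change with siRNA 1 was -0.29 (interval -0.59 to 0.0088, or -0.55 to -0.029 matched). WWTR1 was lower in 3 of 3 number pairs, but did not pass (limma adjusted p = 0.862, or 0.380 with the replicate block). With siRNA 2 the change was -0.06 (-0.36 to 0.24).

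The TEAD genes encode the factors that carry YAP and TAZ to DNA, and of the 4 only TEAD1 and TEAD3 passed a test against control, in the fits that matched libraries by number (and TEAD1 by DESeq2). TEAD1 (chromosome 11, 12674591 to 12944483, plus strand) was at 81.7, 74.8 and 73.9 RPM with siRNA 1, 64.7, 62.2 and 50.7 RPM with siRNA 2, and 101.0, 81.6 and 81.3 RPM with control. All siRNA 2 libraries were lower than all others, and the siRNA 2 mean was 67.3% of the control mean. TEAD1 fell by 0.56 on the log2 scale with siRNA 2 when libraries were matched by number (95% interval -0.76 to -0.37, limma adjusted p = 0.00243), and came just short of the threshold when they were not (-0.83 to -0.30, 0.0580). The drop was present in each number pair, at -0.63, -0.39 and -0.67. The matched call held without any of the 9 libraries in turn (adjusted p from 0.0015 to 0.0344). With siRNA 1 the TEAD1 change was -0.19 (-0.45 to 0.08), short of the threshold either way (adjusted p = 0.9997, or 0.493 matched).

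TEAD3 (chromosome 6, 35473597 to 35497076, minus strand), a paralog with the same DNA-binding fold, was at 23.6, 28.9 and 28.2 RPM with siRNA 1, 20.3, 23.5 and 19.4 RPM with siRNA 2, and 24.5, 34.3 and 32.5 RPM with control. Again siRNA 2 lay below control without overlap, at 69.2% of its mean. TEAD3 fell by 0.50 with siRNA 2 in the matched fit (interval -0.75 to -0.26, limma adjusted p = 0.0220) but did not pass in the unmatched fit (-0.82 to -0.18, 0.208). That call was lost without siRNA 2 replicate 2 (adjusted p = 0.0824) or replicate 3 (0.107), or without control replicate 2 (0.126) or replicate 3 (0.176). With siRNA 1 the change was -0.17 (-0.49 to 0.16) and the groups overlapped.

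TEAD4 (chromosome 12, 2959330 to 3040673, plus strand) was at 203, 206 and 189 RPM with siRNA 1, 226, 214 and 215 RPM with siRNA 2, and 214, 173 and 195 RPM with control. Here siRNA 2 was the highest group, at 112.5% of the control mean, but its lowest library was level with the highest control library. The change of 0.17 (interval -0.04 to 0.38) did not pass in limma (adjusted p = 0.642, or 0.308 matched). With siRNA 1 it was 0.04 (-0.17 to 0.25).

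TEAD2 (chromosome 19, 49340595 to 49362457, minus strand) was read at 24 to 68 reads per library. Its level was 2.32, 3.20 and 4.86 RPM with siRNA 1, 2.40, 3.88 and 6.49 RPM with siRNA 2, and 2.29, 4.93 and 6.41 RPM with control. All 3 groups overlapped, and the level followed the replicate number. Number 1 libraries were at 2.29 to 2.40 RPM, number 2 at 3.20 to 4.93 and number 3 at 4.86 to 6.49, so that 88.8% of its sum of squares lay between numbers and 6.60% between groups. The changes were -0.28 (-0.98 to 0.43) with siRNA 1 and -0.07 (-0.78 to 0.63) with siRNA 2. Among the TEAD genes these intervals were the widest.

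Among the 9 tested members, the groups did not overlap for 0 with siRNA 1, where 6.4% of all genes were higher and 5.59% lower without overlap. With siRNA 2 the count was 1 higher (TEAD4) and 2 lower (TEAD1 and TEAD3), against 4.99% of all genes higher and 8.95% lower. The sum of luminal markers was also lowest in the siRNA 2 libraries, as given above, and its part in the TEAD1 and TEAD3 values was not tested. The 4 TEAD genes are paralogs measured at 1 amplicon each, and the position of an amplicon within its gene was not given in the sources used here.

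**Figure D2:**
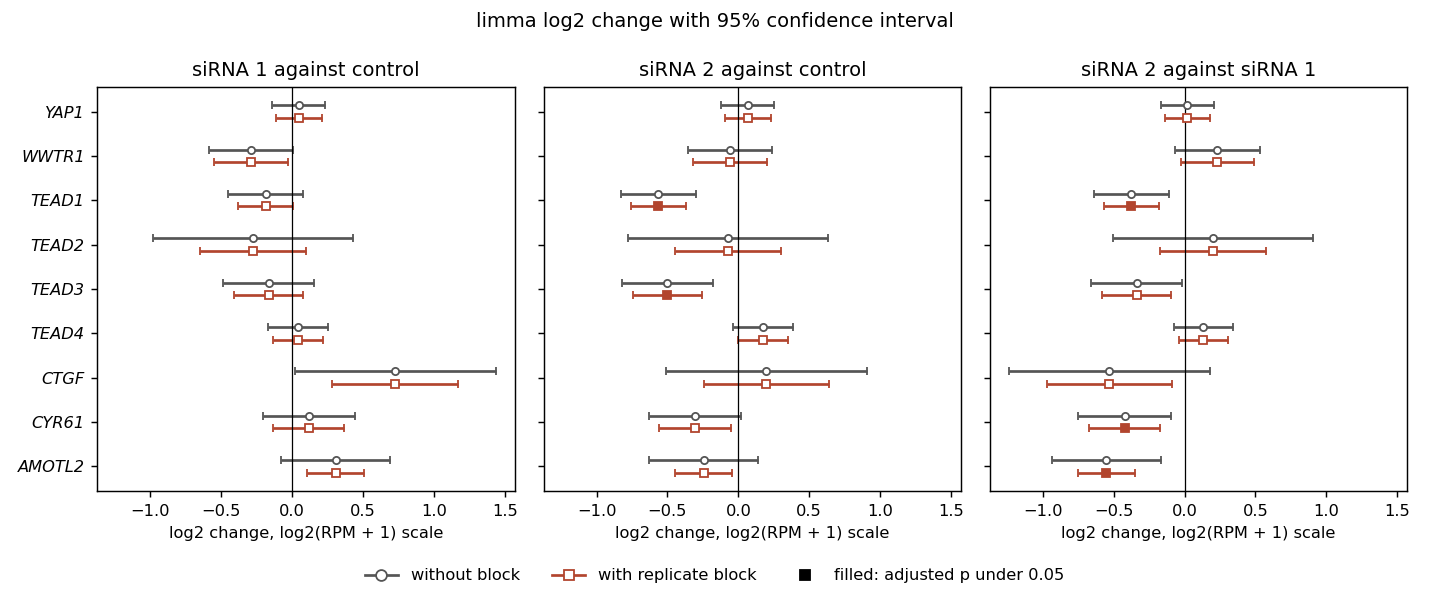
Log2 change (log2(RPM + 1) scale) of the 9 tested genes with its 95% confidence interval for the 3 comparisons, without (circles) and with (squares) the replicate block, filled where the adjusted p is under 0.05. Filled squares are TEAD1 and TEAD3 for siRNA 2 against control, and TEAD1, CYR61 and AMOTL2 for siRNA 2 against siRNA 1.

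CTGF encodes a secreted matricellular protein and is a common readout of YAP activity. CTGF (chromosome 6, 131948176 to 131951373, minus strand), whose promoter above holds 3 motif copies, was at 9.37, 12.3 and 9.25 RPM with siRNA 1, 3.89, 8.63 and 8.97 RPM with siRNA 2, and 3.34, 10.9 and 5.03 RPM with control. The siRNA 1 libraries were the highest on average, at 10.3 ± 1.73 RPM, with siRNA 2 at 7.16 ± 2.84 and control at 6.42 ± 3.97 (SD, n = 3), and the control range spanned most of that. These values rest on 35 to 127 reads per library. The change with siRNA 1 was 0.73 (95% interval 0.019 to 1.44), with number pairs at 1.26, 0.16 and 0.77, and it did not pass in limma (adjusted p = 0.799, or 0.108 matched). The change ran from 0.41 without control replicate 1 to 1.13 without control replicate 2, and in the matched fit without control replicate 2 the adjusted p was 0.0314. With siRNA 2 the change was 0.20 (-0.51 to 0.91), and the number pairs went in both directions.

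CYR61 (CCN1 in current annotation; chromosome 1, 85580761 to 85583962, plus strand) is the close relative of CTGF in the same secreted family. It was at 44.0, 48.2 and 37.2 RPM with siRNA 1, 27.9, 32.9 and 34.9 RPM with siRNA 2, and 34.4, 48.9 and 36.6 RPM with control. The siRNA 2 libraries were low and the siRNA 1 libraries close to control. The change was 0.12 with siRNA 1 (-0.21 to 0.44) and -0.31 with siRNA 2 (-0.63 to 0.02), and the change with siRNA 2 did not pass in limma (adjusted p = 0.571, or 0.201 matched).

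AMOTL2 (chromosome 3, 134355874 to 134375479, minus strand), the motin scaffold gene, was at 82.1, 106 and 88.7 RPM with siRNA 1, 49.6, 85.0 and 57.1 RPM with siRNA 2, and 62.5, 87.7 and 73.3 RPM with control. In every group the number 2 library was highest. Within each number, siRNA 1 was above control (by 0.39, 0.27 and 0.27) and siRNA 2 below it (by -0.33, -0.05 and -0.36). Neither comparison passed in limma: the change was 0.31 with siRNA 1 (interval -0.07 to 0.69, adjusted p = 0.982, or 0.139 matched) and -0.24 with siRNA 2 (-0.63 to 0.14, adjusted p = 0.766, or 0.203 matched).

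ANKRD1 (chromosome 10, 90912096 to 90921276, minus strand) encodes a nuclear cofactor best known in heart muscle. It had 2, 4 and 1 reads with siRNA 1, 0, 3 and 2 with siRNA 2, and 2, 2 and 0 with control. All of these lie at or about the floor of 3 reads (0.280 to 0.299 RPM), so a change was not detectable at this depth. Floors cover counting error only, as reads from amplified cDNA without identifiers are not separate molecules.

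**Figure D3:**
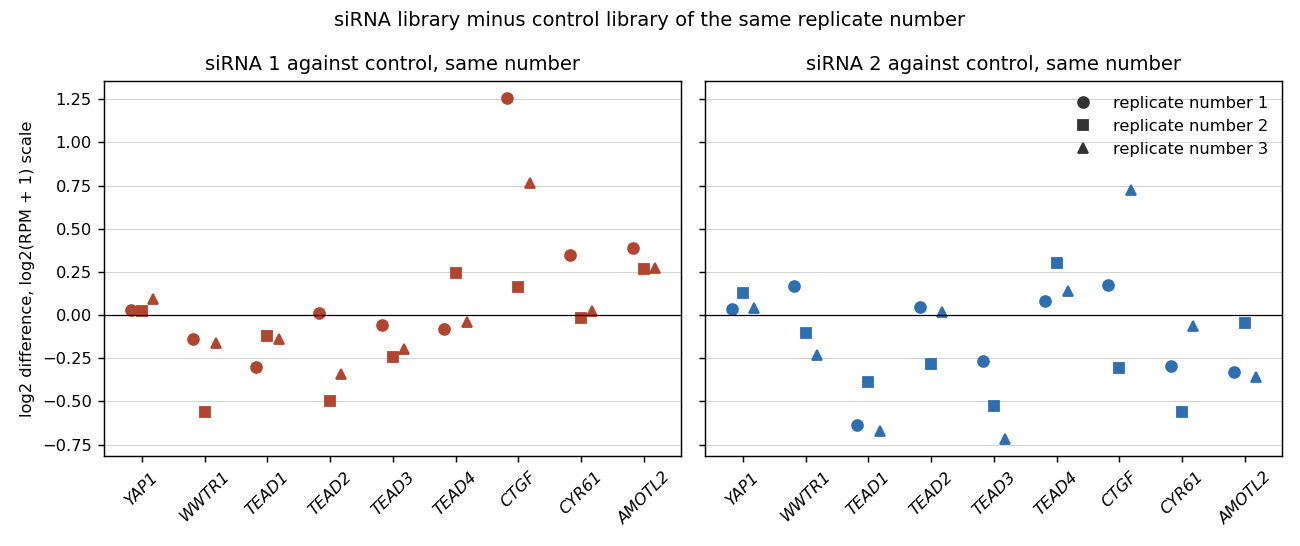
Difference in log2(RPM + 1) of each PVRL4 siRNA library from the control library of the same replicate number, for the 9 tested genes (left, siRNA 1; right, siRNA 2). For AMOTL2 the 3 siRNA 1 points lie above 0 and the 3 siRNA 2 points below it, and for TEAD1 all 6 lie below 0.

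The siRNA groups were also set against each other, with no control library on either side and reagents of the same supplier. Of the 9 members, limma called 0 where it called 3.05% of all genes, and edgeR and DESeq2 called 0 and 0. At an unadjusted p under 0.05 limma had 4 members lower, against 10.1% of all genes. With the replicate block 3 members were called, all lower with siRNA 2, where 9.33% of all genes were called. AMOTL2 averaged 63.9 ± 18.6 RPM with siRNA 2 and 92.3 ± 12.3 RPM with siRNA 1 (SD, n = 3), a difference of -0.55 (95% interval -0.75 to -0.35 and limma adjusted p = 0.00160 matched, -0.94 to -0.17 and 0.132 unmatched). Its siRNA 1 and siRNA 2 groups overlapped, and it was called in the matched fit without each of the 9 libraries in turn.

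CYR61 averaged 31.9 ± 3.63 RPM with siRNA 2 and 43.1 ± 5.58 RPM with siRNA 1, a difference of -0.42 (-0.68 to -0.17 and limma adjusted p = 0.0340 matched, -0.75 to -0.10 and 0.176 unmatched). TEAD1 averaged 59.2 ± 7.49 RPM with siRNA 2 and 76.8 ± 4.27 RPM with siRNA 1, a difference of -0.38 (-0.57 to -0.18 and 0.0155 matched, -0.64 to -0.11 and 0.138 unmatched). For CYR61 and TEAD1, each matched call was lost in 4 of the 9 fits that left out a library. For CYR61 these were the fits without replicate 1 or 2 of either PVRL4 siRNA, and for TEAD1 those without siRNA 2 replicate 1 or 3 or siRNA 1 replicate 2 or 3. For TEAD3 the difference was -0.34 (-0.58 to -0.09 and 0.0802 matched, -0.66 to -0.015 and 0.306 unmatched), with the highest siRNA 2 library level with the lowest siRNA 1 library. CTGF, the other secreted target, was -0.53 (-1.24 to 0.18), lower in 3 of 3 number pairs and not called (adjusted p = 0.498, or 0.131 matched). In the matched fit without siRNA 2 replicate 3 its adjusted p was 0.0397.

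Interferon-stimulated genes differed widely between the siRNA groups, and their levels stand beside these values. The 7 interferon-stimulated genes IFIT1, IFIT2, IFIT3, MX1, ISG15, OAS1 and OAS2 summed to 2921, 265 and 1087 RPM with siRNA 1, 8.49, 11.1 and 46.4 RPM with siRNA 2, and 5.73, 7.39 and 6.21 RPM with control. Among siRNA 1 libraries the one with the smallest sum, replicate 2, had the highest CTGF, CYR61 and AMOTL2. Control replicate 2 was the highest control library for these 3 genes and had the largest control sum, 7.39 RPM. Of the 7 interferon-stimulated genes, 3, 3 and 4 were under 3 reads in the control libraries, so the order of the control sums is uncertain. In the siRNA 2 libraries 2, 2 and 1 were. Among siRNA 2 libraries replicate 1 had the smallest sum and the lowest level of all 3 genes. Replicate 3 of siRNA 2 had the largest sum, with the highest CTGF and CYR61 of that group but not the highest AMOTL2. Within a group each library has its own replicate number, so the order of these sums and the replicate number cannot be told apart. The part of the interferon-stimulated levels in the siRNA 1 values was not tested.

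The 3 measurable targets varied together over the 9 libraries. Pearson's r of log2(RPM + 1) was 0.72 for CTGF and CYR61, 0.75 for CTGF and AMOTL2 and 0.78 for CYR61 and AMOTL2, as a description of libraries that share groups, replicate numbers and scaling. TEAD3 and TEAD4 ran opposite to each other, at -0.85. With YAP1 the 3 targets CTGF, CYR61 and AMOTL2 stood at 0.30, -0.33 and 0.16, and with WWTR1 at -0.21, -0.31 and -0.21. With TEAD3 they stood at 0.27, 0.65 and 0.67, and with TEAD4 at -0.48, -0.70 and -0.60. With TEAD1 they stood at -0.30, 0.36 and 0.27, and with TEAD2 at 0.32, 0.10 and 0.11.

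The share of the variation that went with the replicate number differed between the members. Of the sum of squares of log2(RPM + 1), group and number took 77.4% and 16.9% for TEAD1, 64.8% and 25.5% for TEAD3, 47.9% and 46.7% for AMOTL2 and 31.3% and 47.9% for CTGF. They took 52.1% and 24.9% for CYR61, 47.6% and 13.6% for WWTR1, and 46.2% and 23.3% for TEAD4. The medians over all tested genes were 25.2% for group and 33.7% for number. For YAP1 group, number and remainder were nearly even, at 33.3%, 35.5% and 31.2%.

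**Figure D4:**
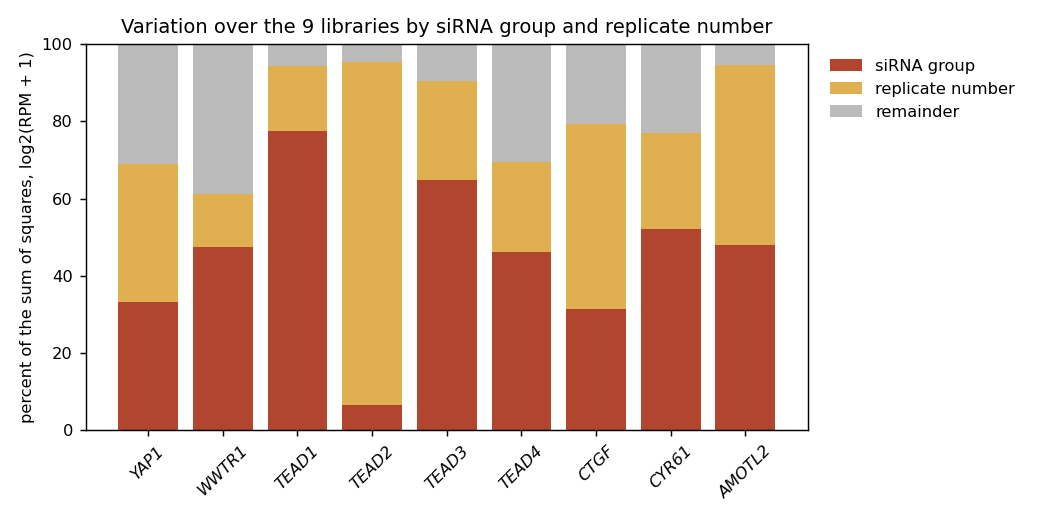
Percent of the sum of squares of log2(RPM + 1) over the 9 libraries that lay between siRNA groups, between replicate numbers and in the remainder, for the 9 tested genes (stacked bars to 100%). The group share is largest for TEAD1 at 77.4% and the number share for TEAD2 at 88.8%.

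For members with a mean of at least 10 RPM, the tested genes whose log2 levels followed theirs most closely over the 9 libraries were also taken. They were PHTF2 (r = 0.97) and MDM2 (0.95) for TEAD1, and CGNL1 (0.97) and PSG4 (0.96) for TEAD3. PSG4 belongs to a family of near-identical copies, so its reads are uncertain. For TEAD4 they were HSPD1 (0.94) and ZNF511 (0.93), for CYR61 MCCC1 (0.97) and CEP135 (0.97), and for AMOTL2 ZSWIM4 (0.97) and BHLHA15 (0.97). YAP1 was followed by TFDP2 (0.93) and NSMCE1 (0.87), and WWTR1 by SEMA4B and ZBTB7C (0.94 each). None of these is a member, and the libraries share groups and replicate numbers. Each was picked for the highest r among all tested genes over 9 libraries, so a high r alone does not show a link. The minimum of 10 RPM applied to the members only. BHLHA15 averaged 1.78 RPM, ZBTB7C 3.21 RPM, CEP135 6.48 RPM and ZSWIM4 9.18 RPM.

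The cascade around YAP and TAZ was read from 5 lists with 60 genes in all, of which 58 were in the table and 46 were tested. Limma called 0 of the 46 against control with siRNA 1 and 0 with siRNA 2, and the counts were also 0 with the replicate block, by edgeR and by DESeq2. At an unadjusted p under 0.05, 1 was higher with siRNA 1 and 3 were higher with siRNA 2, against 3.26% and 2.49% of all genes. The median log2 change was 0.02 with siRNA 1 and 0.01 with siRNA 2. Some genes below are named as not overlapping control. Over all tested genes that held for 6.4% higher and 5.59% lower with siRNA 1. With siRNA 2 it held for 4.99% higher and 8.95% lower.

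The 7 genes of the Hippo kinase core, which encode the MST and LATS kinases and their adaptors, had medians of -0.009 and 0.02 with siRNA 1 and siRNA 2. LATS2 (0.33) and STK4 (0.13) had the smallest p with siRNA 1, and LATS1 (-0.22) and MOB1B (-0.28) with siRNA 2. Of 23 upstream regulators 17 were tested, with medians of 0.03 and -0.008. TAOK3, a kinase that activates MST, was at 27.1, 27.4 and 25.5 RPM with siRNA 1, against 15.6, 20.7 and 20.4 RPM with control, without overlap (0.49, limma adjusted p = 0.338, or 0.117 matched). NF2, the tumour suppressor merlin, was next with siRNA 1 (-0.20). With siRNA 2 these were the LIM proteins LIMD1 (0.21, adjusted p = 0.492) and AJUBA (-0.31), which bind LATS kinases. LIMD1 was above control without overlap with each PVRL4 siRNA. It averaged 100.7, 106.4 and 91.8 RPM with siRNA 1, siRNA 2 and control.

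STRIPAK, the phosphatase complex that counteracts MST kinases, had 8 of 10 genes tested, with medians of -0.002 and 0.03. Its subunit gene MOB4 was at 192, 201 and 254 RPM with siRNA 2, against 176, 176 and 179 RPM with control, without overlap (0.27, limma adjusted p = 0.431, or 0.111 matched). CTTNBP2NL (0.32) was next with siRNA 2. STRN3 (-0.21) and SIKE1 (-0.12) came first with siRNA 1, each lower than control without overlap. The VGLL proteins compete with YAP and TAZ for TEADs, and 2 of their 4 genes were tested. VGLL1 averaged 141, 115 and 139 RPM with siRNA 1, siRNA 2 and control (-0.27 with siRNA 2, limma adjusted p = 0.540), and VGLL4 was at -0.18 with siRNA 2.

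Of 18 further target genes 14 were tested, with medians of 0.05 with siRNA 1 and 0.02 with siRNA 2. NT5E, a cell surface nucleotidase, had the smallest p with siRNA 1, at 15.8, 15.8 and 12.8 RPM, against 10.5, 14.3 and 9.17 RPM with control (0.37, limma adjusted p = 0.868), followed by LATS2. With siRNA 2 it was ASAP1, at 125, 133 and 129 RPM, against 117, 102 and 106 RPM with control, without overlap (0.25, adjusted p = 0.446). TGFB2 (-0.38) followed. LATS2 and PTPN14 stand in 2 of the lists.

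**Figure D5:**
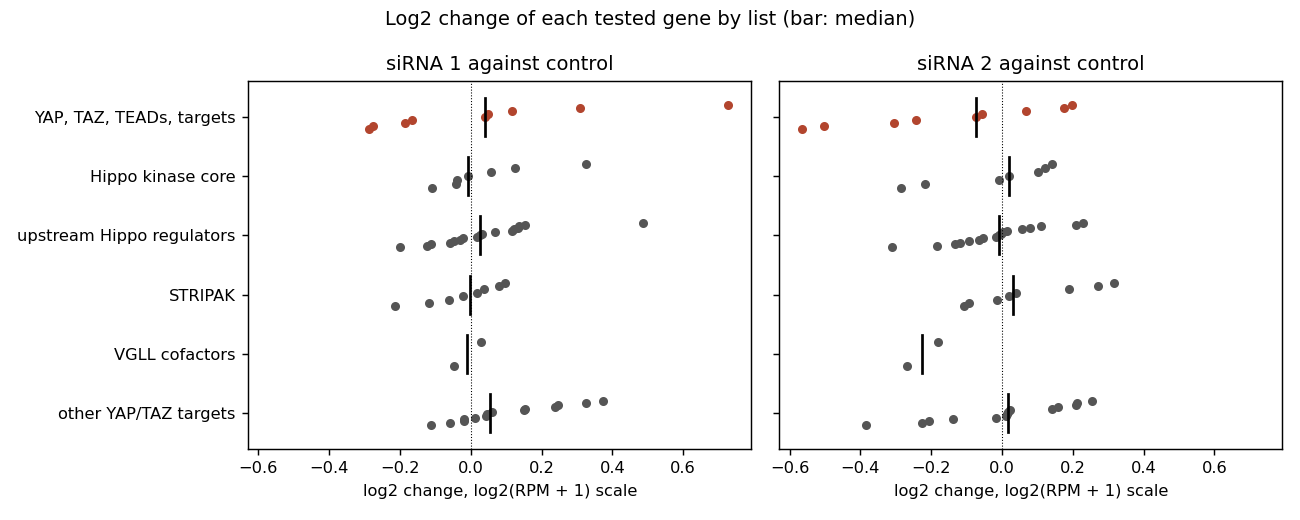
Log2 change against control (log2(RPM + 1) scale, same axis in both panels) of each tested gene, by list, with a bar at the median of the list. TEAD1 and TEAD3, at -0.56 and -0.50, are the lowest points with siRNA 2, CTGF, at 0.73, is the highest with siRNA 1, and every list median lies between -0.22 and 0.05.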

How the data were processed

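Total RNA of 9 SKBR3 samples (100 ng each) was made into libraries with the Ion AmpliSeq Transcriptome kit, which reads 1 short amplicon per gene, per the labels' protocols. The authors deposited RPM values for 20812 genes. They sum to the same total in each library, so differences in RNA per cell are removed. Per the submitters' processing notes the genome was hg19. The aligner and counting tool are not given in the sources used here. In all 9 libraries 100% of values were whole multiples of 1 read within 0.1 read. Pairs of libraries of a group differed by more than counting noise (chi-square per degree of freedom 8.90 to 23.9).

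Groups and replicate numbers came from the titles. Log2(RPM + 1) was tested two-sided with limma 3.58.1 (R 4.3.3, trended prior, 3 groups in 1 fit) over 11158 genes averaging 1 RPM or more, adjusted by Benjamini-Hochberg, at a threshold of 0.05. The pseudocount understates changes of low genes. The titles state no pairing of samples, and matching by replicate number rests on these same data. Deviations from group means correlated at 0.252 to 0.417 in the 9 pairs with a shared number across groups. In the other 18 pairs across groups they correlated at -0.340 to -0.0275. Deviations cancel within a group, so positive values for a shared number make the other pairs negative on balance. The negative range is thus no separate support for matching. "Matched" means that the number was a block. Alternatives were other pseudocounts, filters and scalings, edgeR 4.0.16 and DESeq2 1.42.0 on recovered reads, and leaving out each library. edgeR called 108 genes with siRNA 1 and 58 with siRNA 2, where limma called 95 and 76. The fits were tested on simulated counts with planted changes larger than those of the members and a built-in effect of replicate number. That test therefore does not cover changes of the members' size.

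The members and lists were chosen with earlier results of these data known. Named genes were all members, PVRL4, of each list the genes past the threshold or else the 2 with the smallest p in each comparison with control, and the 2 genes most correlated with each member. Gene positions are those of GENCODE in GRCh38, while the reads were counted on hg19.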

Additional observations from a re-analysis of the deposited data

Results flagged for a closer look

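Differences between the effects of the PVRL4 siRNAs drew attention for 3 members. In the fit with the replicate block, the log2 difference of siRNA 2 from siRNA 1 was -0.55 for AMOTL2 (limma adjusted p = 0.00160, lower in 3 of 3 number pairs), -0.42 for CYR61 (0.0340, 3 of 3) and -0.38 for TEAD1 (0.0155, 3 of 3). Without the block these were short of the threshold (limma adjusted p = 0.132, 0.176 and 0.138). The fit with the block called 1041 of all 11158 tested genes (9.33%) in this comparison. When each of the 9 libraries was left out in turn under the block, AMOTL2 was called in all 9 fits. The calls of CYR61 and TEAD1 were each lost in 4 of the 9 fits.

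AMOTL2 also lay on opposite sides of control with the PVRL4 siRNAs. In all 3 replicate numbers the siRNA 1 library was above the control library of that number and the siRNA 2 library was below it. Neither change passed (0.31 with siRNA 1 and -0.24 with siRNA 2, limma adjusted p = 0.139 and 0.203 with the block), and the siRNA 2 difference of number 2 was -0.05. With 1 library left out, the siRNA 2 change ran from -0.47 (without siRNA 2 replicate 2) to -0.083 (without siRNA 2 replicate 1).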

How the results depend on the processing

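The 27 member changes were recomputed under 31 settings, giving 834 values, of which 770 kept direction and side of the threshold, 47 newly passed it and 17 changed sign. No changed sign passed the threshold. The fits that left out a library under the replicate block were chosen after seeing the data.

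Sign changes occurred in 6 results, and each arose with a library left out, with or without the block. Without the block the log2 change then ran from -0.037 to 0.11 for TEAD4 with siRNA 1, from -0.16 to 0.0058 for WWTR1, -0.41 to 0.20 for TEAD2 and -0.12 to 0.60 for CTGF with siRNA 2, and from -0.0051 to 0.056 for YAP1 and -0.092 to 0.48 for TEAD2 between siRNA 2 and siRNA 1. With the block, the changed signs were TEAD4 with siRNA 1 at -0.029 and -0.042 (without siRNA 1 or control replicate 2), WWTR1 with siRNA 2 at 0.061 and 0.023 (without siRNA 2 replicate 3 or control replicate 2), TEAD2 with siRNA 2 at 0.034 (without control replicate 2), CTGF with siRNA 2 at -0.057 (without siRNA 2 replicate 3), and YAP1 between siRNAs at -0.0071 and -0.016 (without siRNA 1 or siRNA 2 replicate 2). The cause was not tested.

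The count of members past the threshold with siRNA 2 against control was 0, against 2 with the replicate block in limma and in edgeR and 1 by DESeq2. Of all 11158 genes limma called 76 without and 380 with the block, and edgeR 320 with it. DESeq2 called 159 of 9860. With a library left out, the count of members was 0 without the block and 1 to 2 with it. Between siRNA 2 and siRNA 1 the count of members was 0, against 3 with the replicate block in limma and in edgeR. Of all genes limma called 340 without and 1041 with the block, and edgeR 1015 with it. With a library left out, the count of members was 0 to 1 without the block and 1 to 3 with it. Without the block, AMOTL2 passed without siRNA 2 replicate 2 (-0.77, limma adjusted p = 0.0226). With siRNA 1 against control and a library left out, the count of members was 0 without the block and 0 to 1 with it. The block changed no other call of a member. Over all settings the limma, edgeR or DESeq2 adjusted p ran from 0.0015 to 0.270 for TEAD1 and from 0.0193 to 0.615 for TEAD3 with siRNA 2.

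CTGF and TEAD2 rest on few reads, TEAD2 drops out at a filter of 5 RPM, and their intervals are the widest.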

Other observations

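Among the pathway genes outside the members, 3 of 46 differed between siRNA 2 and siRNA 1 with the replicate block, where 9.33% of all genes did, and these 3 missed the threshold without it. They were chosen after their values were seen. TAOK3, a kinase upstream of MST, averaged 18.9 RPM with siRNA 2 and 26.7 RPM with siRNA 1 (-0.49, limma adjusted p = 0.0404 matched, 0.132 unmatched). VGLL1, which competes with YAP for TEADs, averaged 115 RPM with siRNA 2 and 141 RPM with siRNA 1 (-0.30, 0.0442 matched, 0.283 unmatched). MOB4 of the STRIPAK complex averaged 216 RPM with siRNA 2 and 175 RPM with siRNA 1 (0.29, 0.0453 matched, 0.205 unmatched).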
